A study of Mus musculus with 2 samples.

Results

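Adipokines are proteins that fat cells secrete into the blood or the surrounding tissue. The 10 adipokine genes examined here were Lep, Adipoq, Retn, Cfd, Rbp4, Nampt, Apln, Rarres2, Angptl4 and Nrg4, out of 21951 protein-coding genes in the GENCODE M21 annotation of the mouse genome GRCm38. They were picked by name as well-known adipokines, with the peak at Lep already known, and the deposited TET2 peaks were then located at each transcription start site (TSS), in each gene body and at the nearest position outside it, with Lep as the reference. TET2 was mapped by chromatin immunoprecipitation sequencing (ChIP-seq) in mouse adipocytes made in culture. Their source was adipose-derived stem cells (ASCs) of inguinal white adipose tissue at passage 3, which received IBMX (0.5 mM), dexamethasone (1 µM) and insulin (10 µg/mL) at confluence and were then kept in 10 µg/mL insulin, given every 48 h. These doses are from the labels, and the methods name another insulin dose for the induction step. From such cells the series holds 1 library of TET2-bound DNA and 1 of input, that is, of chromatin sequenced without the antibody step. The labels give no strain, genotype, sex or age, there is no second condition and no replicate, and an error between libraries can therefore not be given for any value.

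Leptin, the product of Lep, signals the size of the fat stores to the brain, and the other adipokines act on insulin sensitivity, lipid use, blood vessels or immune cells. Several of these genes, Lep and Adipoq among them, are switched on late in adipogenesis under transcription factors such as C/EBPα. TET2 oxidises 5-methylcytosine to 5-hydroxymethylcytosine, mostly in CpG dinucleotides, and as it has no DNA-binding domain of its own it reaches its sites with other proteins. How many CpGs a promoter holds is therefore given beside each gene as a property of the reference sequence. It was expressed as the CpG ratio, the observed number of CpGs over the number that the C and G content gives, within 500 bp each side of 1 representative TSS.

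A peak is an interval in which TET2 fragments exceeded the input according to the authors' peak caller, and its −log10 p is that program's value for the interval. The list held 14103 peaks with a median length of 426 bp and a median −log10 p of 6.21 (quartiles 5.13 and 7.91). In 15.5% of them the −log10 p is under 5, so that they miss the p of 1e-05 stated as the setting for peak calling. It gives no read totals, so the depth behind a peak is unknown. Peaks are also not expression, so the list cannot show whether the cells had the markers of adipocytes. Exact 95% binomial intervals are given for shares and cover counting error only.

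Of the 10 adipokine genes, 2 had a peak midpoint within 1 kb of a TSS, Lep and Nampt. This was 20% (2.52% to 55.6%), against 24.6% of all protein-coding genes. A midpoint inside the gene body was found for 2 genes, Nampt and Rbp4, against 32.1% of all protein-coding genes. Within 10 kb of a TSS, 4 genes had a peak (40%, 12.2% to 73.8%), namely Lep, Nampt, Rbp4 and Cfd, against 37.8% of all genes. The counts lay near these background shares and are no result about the adipokine genes as a group. The remaining 7 genes, Adipoq and Retn among them, had a peak neither at a TSS nor in the gene body. Most protein-coding genes also lacked a peak at a TSS, and most lacked one in the body. The share of all genes with neither is not given, so this count is no result either.

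**Figure D1:**
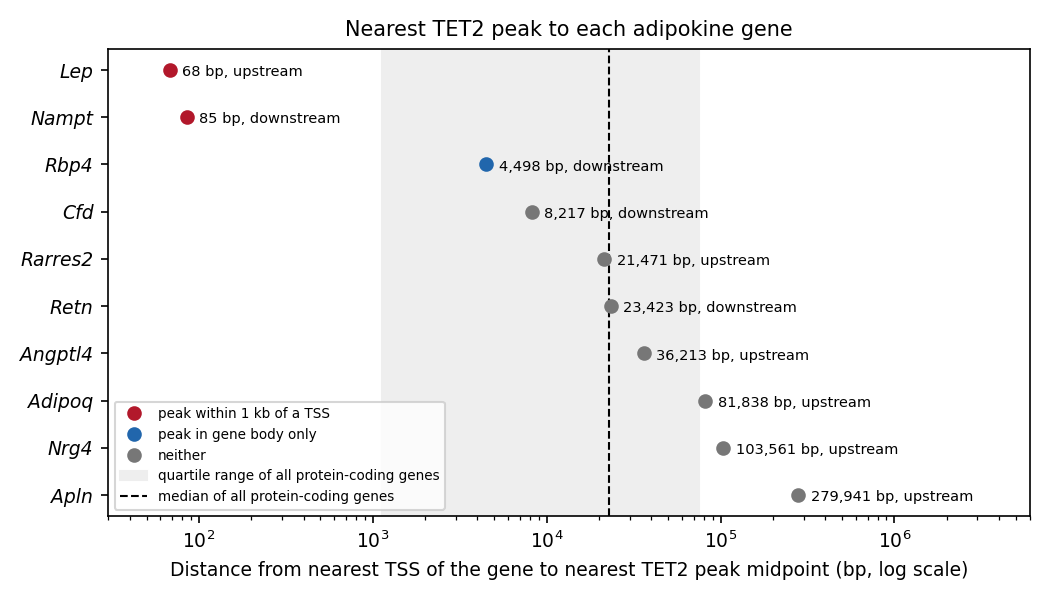
Distance in bp, on a log axis, from the nearest TSS of each adipokine gene to the midpoint of the nearest TET2 peak, with the range between the quartiles of all protein-coding genes shaded and their median dashed. Lep and Nampt sit at 68 and 85 bp, Rbp4 and Cfd below 10 kb, and the other 6 genes from 21471 bp (Rarres2) to 279941 bp (Apln).

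The median distance from a TSS to the nearest peak was 22447 bp over the 10 genes and 22880 bp over all protein-coding genes (quartiles 1132.5 and 74943 bp). The nearest peak lay upstream for 6 genes and downstream for 4. It lay within 1 kb of a TSS of another gene only for 3 of them, and more than 1 kb from every annotated TSS for 5. Of all 14103 peaks, 5824 lay within 1 kb of a TSS. Shares over all genes are not given for these counts or for upstream and downstream, so they are no result about the adipokine genes. None of the other 9 nearest peaks reached the −log10 p of the Lep peak, 11.2. They ran from 4.12 at Adipoq to 7.21 at Retn with a median of 6.06, just under the median of the whole list.

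**Figure D2:**
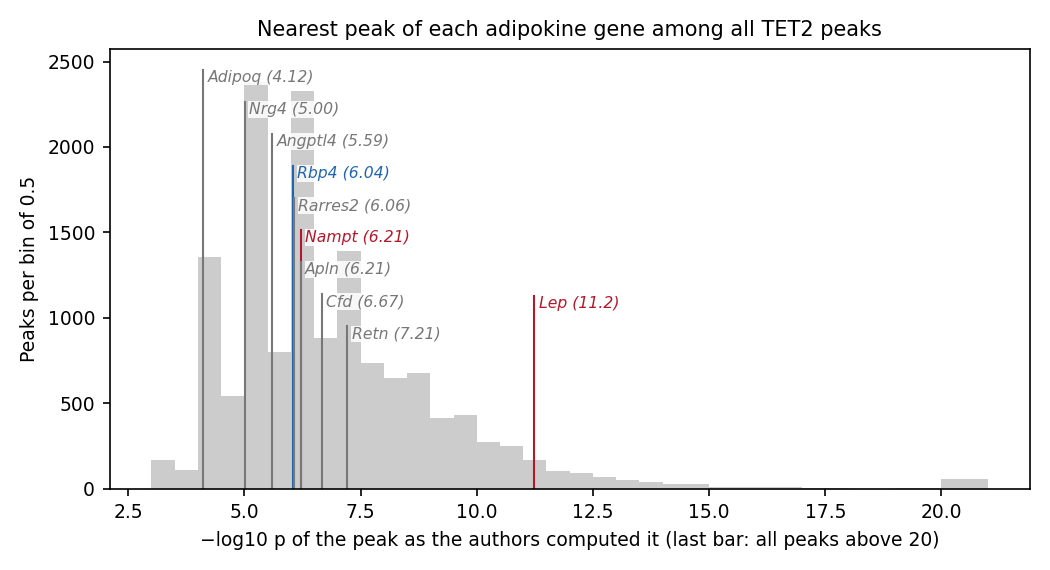
Number of TET2 peaks per bin of 0.5 in −log10 p over all 14103 peaks (grey, with all peaks above 20 in the last bar) and the value of the nearest peak of each adipokine gene (vertical lines, labelled). The line for Lep stands at 11.2, in the upper tail, and the lines of the other 9 genes lie between 4.12 and 7.21, in the bulk of the list.

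Lep (ENSMUSG00000059201, chr6:29060220-29073877, plus strand) carried the peak chr6:29059811-29060493, 683 bp long, with its midpoint 68 bp upstream of the TSS. It covers all 29 bp of exon 1, which is untranslated, and the sequence on either side. Only 7.79% of the peaks were longer, and 621 of 14103 (4.40%) had a larger −log10 p. The same value was shared by 13 peaks. The promoter has 30 CpGs and a ratio of 0.378, below the median of 0.571 over all protein-coding genes. In the twentieth of genes with a like ratio, 159 of 1098 (14.5%, 12.5% to 16.7%) had a promoter peak, and Lep ranked 13 among these 159 by −log10 p. Over all genes with a promoter peak, 504 (9.35%) had a ratio up to that of Lep, and 35 of these 504 (6.94%) had a larger −log10 p. In this window the promoter was CpG-poor for one with a peak, but the ratio depends on the window and was 0.585 from 250 bp before to 50 bp after the TSS. The peak itself holds 25 CpGs with a ratio of 0.407, and 10.3% of the peaks within 1 kb of a TSS had a lower one. The TSS of the other annotated transcript lies inside the gene with a CpG ratio of 0.116, and from it the same peak is 5310 bp upstream.

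The promoter of Lep is shown from 250 bp before to 50 bp after the RefSeq TSS (RefSeq, GRCm38, chr6:29059971-29060270, plus strand), because annotated protein binding sites lie in it. The whole stretch is inside the peak. Capitals mark, in order, the SP1 site (chr6:29060111-29060140), the C/EBPα site (chr6:29060166-29060174), the TATA box (chr6:29060190-29060194) and the AP-2β site (chr6:29060243-29060270) of the RefSeq annotation.
Lep promoter: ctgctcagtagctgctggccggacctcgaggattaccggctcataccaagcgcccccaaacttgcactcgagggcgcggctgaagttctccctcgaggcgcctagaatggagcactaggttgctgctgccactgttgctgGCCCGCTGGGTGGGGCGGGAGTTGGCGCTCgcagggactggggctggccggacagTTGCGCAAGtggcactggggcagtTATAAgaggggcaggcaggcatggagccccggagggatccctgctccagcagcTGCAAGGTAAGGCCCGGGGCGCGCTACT
The C/EBPα site ends 46 bp and the SP1 site 80 bp upstream of the TSS, and the AP-2β site starts 23 bp downstream. The 300 bases hold 19 CpGs, 1 of them at the centre of the C/EBPα site. A single peak spans all 4 elements, so it does not separate them.

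**Figure D3:**
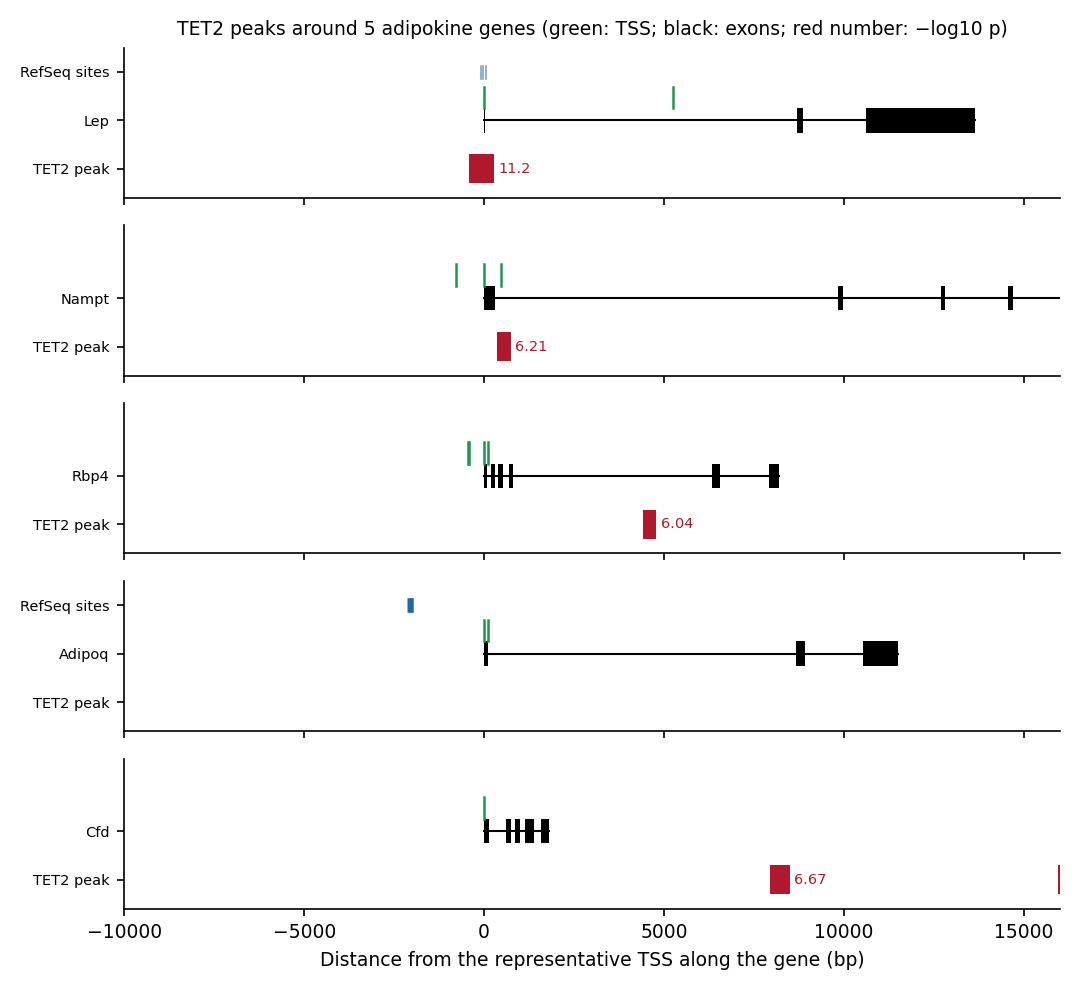
TET2 peaks (red, with −log10 p) from 10000 bp upstream to 16000 bp downstream of the representative TSS of Lep, Nampt, Rbp4, Adipoq and Cfd, with exons (black), TSSs of all transcripts (green) and RefSeq binding sites and enhancers (blue). The peak covers the TSS at Lep, follows exon 1 at Nampt, lies in the long intron of Rbp4 and 8217 bp downstream of the Cfd TSS, and none is within this window at Adipoq.

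Nampt (ENSMUSG00000020572, chr12:32819545-32853349, plus strand) encodes the enzyme that makes nicotinamide mononucleotide, a precursor of NAD, and its secreted form is known as visfatin. Its peak, chr12:32820696-32821077, had a −log10 p of 6.21, and 49.1% of all peaks had a larger value. As many as 1215 peaks share exactly this value, which is also the median of the list. The midpoint lies 85 bp downstream of the TSS of a noncoding Nampt transcript and 551 bp downstream of that of the coding transcript. In the coding transcript the peak is in the intron between exon 1, which ends at position 32820626, and exon 2, which starts at 32830167. The promoter is CpG-rich, with 112 CpGs and a ratio of 0.899, and 91.1% of protein-coding genes have a lower one. Of 1098 genes with a like ratio 496 (45.2%, 42.2% to 48.2%) had a promoter peak, and Nampt ranked 321 among them. A long noncoding RNA gene, Gdap10, starts 986 bp downstream of the same midpoint, so the peak is within 1 kb of both genes.

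The central 300 bases of the Nampt peak (RefSeq, GRCm38, chr12:32820736-32821035, plus strand) are shown for comparison with the Lep promoter. Capitals mark its 35 CpGs.
Nampt peak: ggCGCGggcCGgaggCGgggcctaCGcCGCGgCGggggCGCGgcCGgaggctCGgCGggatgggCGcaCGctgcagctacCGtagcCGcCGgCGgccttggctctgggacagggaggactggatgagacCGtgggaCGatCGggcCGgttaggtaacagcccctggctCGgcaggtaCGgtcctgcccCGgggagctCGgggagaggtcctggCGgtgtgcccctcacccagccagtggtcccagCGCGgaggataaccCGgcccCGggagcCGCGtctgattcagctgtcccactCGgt
The CpGs run through the whole stretch. The 2 adipokine genes with a promoter peak thus differed in CpG content, at ratios of 0.378 and 0.899, and in −log10 p, at 11.2 and 6.21.

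Rbp4 (ENSMUSG00000024990, chr19:38116629-38125281, minus strand) encodes the carrier of retinol in blood. Its peak, chr19:38120040-38120414, lay in the intron between exons 4 and 5, 4498 bp downstream of the nearest TSS, with a −log10 p of 6.04 (60.8% of peaks larger). Peaks in the body were found in 21.5% of genes of like length. The promoter of Rbp4, with 81 CpGs and a ratio of 0.756, had none, while 41.2% (38.2% to 44.1%) of genes with a like ratio had a promoter peak. The intronic peak, in contrast, holds 2 CpGs with a ratio of 0.061, and only 6.30% of all peaks had a lower ratio. Repeat-masked bases make up 36.3% of it. Its central 300 bases (RefSeq, GRCm38, chr19:38120077-38120376, minus strand) are printed because a short unit recurs in them. The only CpG of these bases is in capitals.
Rbp4 peak: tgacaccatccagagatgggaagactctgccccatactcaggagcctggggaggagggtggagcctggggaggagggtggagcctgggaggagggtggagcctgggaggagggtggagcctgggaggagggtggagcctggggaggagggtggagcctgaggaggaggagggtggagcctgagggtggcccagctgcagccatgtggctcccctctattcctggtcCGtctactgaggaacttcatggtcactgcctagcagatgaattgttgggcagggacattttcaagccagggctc
The 16 bases aggagggtggagcctg occur 7 times in this stretch, at a median step of 18.5 bp over 130 bp. In 214 of the 14103 peaks (1.52%) some run of 16 bases occurred at least 7 times in the central 300 bases. In the Lep and Nampt peaks no run of 16 bases occurred more than 1 time. The effect of repeated sequence on read alignment at Rbp4 was not tested.

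Adipoq (ENSMUSG00000022878, chr16:23146536-23158028, plus strand) encodes adiponectin, an insulin-sensitising hormone made almost only by fat cells. No peak lay in the gene or within 10 kb of it. The nearest, chr16:23064407-23064989, was 81838 bp upstream inside Kng1, a kininogen gene, with its midpoint 6305 bp from the Kng1 TSS, and 76.9% of protein-coding genes had a peak at least as near. It was a weak peak with a −log10 p of 4.12, one of those under 5, and 89.9% of all peaks had a larger value. With peaks of p at most 1e-05 only, the nearest was 217449 bp away. The Adipoq promoter is CpG-poor, with 8 CpGs and a ratio of 0.143, and of genes with a like ratio 3.83% (2.77% to 5.14%) had a promoter peak. The 250 bases before the TSS (RefSeq, GRCm38, chr16:23146286-23146535, plus strand) contain no CpG, and they are shown beside an enhancer farther upstream (chr16:23144387-23144561, plus strand) in which the RefSeq annotation lists 2 fragments bound by C/EBP proteins. These fragments are in capitals.
Adipoq promoter: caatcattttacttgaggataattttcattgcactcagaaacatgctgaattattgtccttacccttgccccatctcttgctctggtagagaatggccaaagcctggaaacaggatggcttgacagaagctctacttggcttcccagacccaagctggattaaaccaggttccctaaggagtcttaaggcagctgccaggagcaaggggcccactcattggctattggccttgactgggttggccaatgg
Adipoq enhancer: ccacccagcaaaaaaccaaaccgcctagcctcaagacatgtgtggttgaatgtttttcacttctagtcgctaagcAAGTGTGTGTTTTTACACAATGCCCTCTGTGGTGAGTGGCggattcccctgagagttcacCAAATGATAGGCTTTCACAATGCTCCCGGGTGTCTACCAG
The enhancer fragments lie from 2074 to 1975 bp upstream of the TSS and hence far from any peak, the nearest being 79783 bp off. Annotated C/EBP sites were thus in a peak at Lep and not at Adipoq. Over the whole annotation 2 of 22 C/EBP sites (9.09%), 26 of 562 protein binding sites (4.63%) and 36 of 1015 enhancers (3.55%) had their midpoint in a peak.

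Retn (ENSMUSG00000012705, chr8:3655770-3660110, plus strand) encodes resistin, a hormone that opposes insulin action in mice. Its nearest peak, chr8:3679003-3679384, was 23423 bp downstream of the TSS inside Trappc5, a gene of vesicle trafficking, and 2239 bp from the TSS of the antisense RNA gene Gm45231. Its −log10 p of 7.21 was the highest among the adipokine genes after Lep. The peak was CpG-rich (ratio 0.789), whereas the Retn promoter has 13 CpGs and a ratio of 0.173. Among genes with a like promoter ratio 5.65% (4.36% to 7.18%) had a promoter peak.

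Cfd (ENSMUSG00000061780, chr10:79890853-79892655, plus strand) encodes adipsin, the complement factor D protease, one of the most abundant secreted products of fat cells. Its promoter has 11 CpGs (ratio 0.158), and neither the promoter nor the gene held a peak. Among genes with a like ratio 5.65% had a promoter peak. The nearest one, chr10:79898791-79899349, lay 8217 bp downstream of the TSS inside Med16, a Mediator subunit gene, 615 bp from the Med16 TSS, with a −log10 p of 6.67. Around Cfd peaks were dense. Within 100 kb of its TSS there were 13 peaks, against a median of 2 over all protein-coding genes, and 11 genes had more. These 13 peaks had −log10 p values from 4.56 to 11.9, and 6 of them lay within 1 kb of a TSS. Of the 16 other protein-coding genes that start within 100 kb of Cfd, 5 had a promoter peak, namely Arid3a, Med16, Ptbp1, R3hdm4 and Wdr18. This is 31.2%, beside 24.6% of all protein-coding genes, and the median promoter ratio of these 16 genes is 0.636.

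Rarres2 (ENSMUSG00000009281, chr6:48569696-48572789, minus strand) encodes chemerin, which attracts immune cells and acts on adipogenesis. Its promoter ratio was 0.135 with 9 CpGs, and 3.83% of genes with a like ratio had a promoter peak. Its nearest peak, chr6:48594073-48594447, lay 21471 bp upstream at the promoter of the zinc finger gene Repin1, 59 bp upstream of that TSS, with a −log10 p of 6.06. Within 100 kb there were 7 peaks, and 3 of the 8 other protein-coding genes that start there had a promoter peak (37.5%, beside 24.6% of all protein-coding genes). They were Gm44965, Repin1 and Zfp775. The promoter peaks of Repin1 and Zfp775 both lie inside Gm44965, so the 3 genes do not stand for separate peaks. The median promoter ratio of these 8 genes is 0.523.

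Angptl4 (ENSMUSG00000002289, chr17:33773750-33781830, minus strand) encodes an inhibitor of lipoprotein lipase that rises on fasting. Its promoter ratio was 0.481 with 36 CpGs, in a group of which 23.2% (20.8% to 25.9%) had a promoter peak. The nearest peak, chr17:33817856-33818230, was 36213 bp upstream at the promoter of Kank3, 136 bp downstream of its TSS, with a −log10 p of 5.59. Within 500 kb of Angptl4 there were 20 peaks, against a median of 8 over all genes.

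Nrg4 (ENSMUSG00000032311, chr9:55220222-55326844, minus strand) encodes a growth factor of the EGF family that brown fat releases and that acts on the liver. It is the longest of the 10 genes at 106623 bp, and in genes of like length 48.5% had a peak in the body, but Nrg4 had none. Its representative promoter is CpG-rich, with 88 CpGs and a ratio of 0.831, and 43.6% (40.7% to 46.6%) of genes with a like ratio had a promoter peak. The nearest peak, chr9:55430218-55430592, was 103561 bp upstream inside Tmem266 with a −log10 p of 5.00. The TSS nearest to that peak, of the electron transfer flavoprotein gene Etfa, was 57108 bp away.

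Apln (ENSMUSG00000037010, chrX:48025146-48034853, minus strand) encodes apelin, a peptide that acts on vessels, heart and glucose uptake. Its nearest peak, chrX:48314544-48315045, was 279941 bp upstream with a −log10 p of 6.21, and 94.5% of protein-coding genes had a peak as near. The TSS closest to that peak was of the small nuclear RNA gene Gm22612, 7751 bp away, and the closest TSS of a protein-coding gene, the corepressor gene Bcorl1, was 26564 bp away. On the X chromosome peaks were sparse, at 1.53 per Mb against 5.61 on the autosomes, and among X-linked genes 68.8% had a peak as near. The Apln promoter has 66 CpGs and a ratio of 0.663. In its group 29.3% had a promoter peak, whereas of the 948 genes on X only 66 (6.96%) had one.

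The promoter CpG ratio was under 0.4 in 5 of the 10 genes (Lep, Adipoq, Retn, Cfd and Rarres2) and at least 0.6 in 4 (Nampt, Nrg4, Rbp4 and Apln). From 250 bp before to 50 bp after the TSS, Lep (0.585) would leave the lower class and Apln (0.493) the upper one. Of all protein-coding genes under 0.4, 6.53% of 8535 had a promoter peak, and of those at 0.6 or more 39.1% of 10408. In each class 1 of the adipokine genes had one, Lep in the first and Nampt in the second. The mean of the shares of the 10 genes' own groups was 21.6%, near the 20% measured, so the count was close to that of genes with like promoters.

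**Figure D4:**
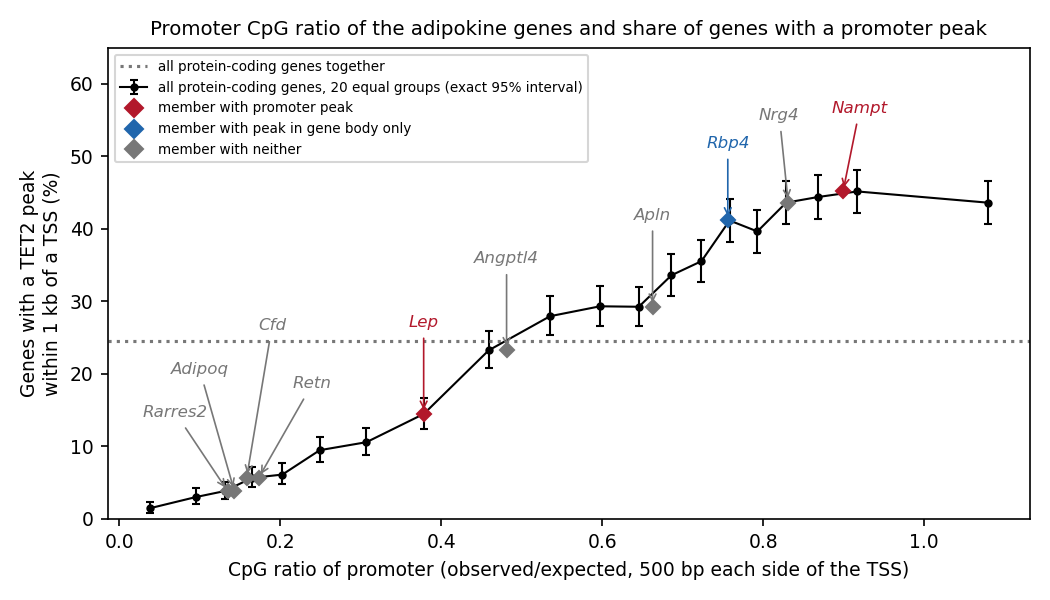
Share of protein-coding genes with a TET2 peak within 1 kb of a TSS in 20 equal groups by promoter CpG ratio (black points, exact 95% intervals), with each adipokine gene placed at its own ratio and the share of its group (diamonds). The shares rise from 1.46% in the lowest group to 45.2% in the group of Nampt; Lep stands in a group at 14.5%.

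The letters of 5 binding motifs were sought on both strands of the stretch from 250 bp before to 50 bp after the representative TSS of each gene. TTGCNNAA for C/EBP was present in 2 of the 10 promoters, Lep and Rbp4, and in 10.2% of all protein-coding promoters. TATAA was found in the same promoters, against 22.6% of all. GGGCGG for SP1 was present in 5 (Lep, Nrg4, Nampt, Rbp4 and Apln, against 45.3%) and GCCNNNGGC for AP-2 in 4 (Lep, Retn, Nampt and Rbp4, against 19.2%). None held TTCNNNGAA for STAT, which 8.25% of all promoters hold. Lep and Rbp4 therefore shared matches to 4 motifs, and Lep had a promoter peak and Rbp4 none. In the central 300 bases of the Nampt peak GCCNNNGGC matched 5 times, some of the matches overlapping. No other motif of the 5 matched there, and the Rbp4 peak had no match. These bases of the Nampt peak are 74.3% G and C, and 25.6% of all peaks held GCCNNNGGC. The Adipoq enhancer held none of the 5 motifs. Such matches describe the letters only.

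For comparison, 28 other genes for factors that fat tissue secretes, 22 relatives of the adipokine genes by family or name and 14 receptor genes were placed in the same way. Of the other secreted factors 11 (39.3%, 21.5% to 59.4%) had a promoter peak, with the largest −log10 p at Ptx3 (pentraxin, 10.9), Gdf15 (9.39), Fbn1 (which gives the hormone asprosin, 9.08), Enpp2 (autotaxin, 8.85), Metrnl (8.85) and Fstl1 (8.51). Their share was higher than the 20% of the adipokine genes, with overlapping intervals, and 24.6% lies inside both. The mean share of genes with like promoter CpG ratio was 18.9% for the other secreted factors and 21.6% for the adipokine genes. An excess over these shares was not tested. The lists were chosen with earlier results of these data known, so the intervals cannot decide it. The CpG ratio is also that of the representative TSS, while a peak counted at any TSS. At Fbn1, Enpp2 and Gdf15 the peak was within 1 kb of another TSS only, and so it was at Nrg1 among the family relatives. The Fbn1 peak, 2158 bp from the representative TSS, had a ratio of 0.784, against 0.336 at that TSS. Of the family relatives 5 (22.7%, 7.82% to 45.4%) had a promoter peak, beside 24.6% of all protein-coding genes. The mean share of genes with like promoter CpG ratio was 12.4% for this list, and the difference was not tested. The 5 were Nrg1 (9.94), Angptl2 (8.21), Rbp3 (8.21), Angptl7 (7.16) and Nrg2 (3.86). Nrg4, Angptl4 and Rbp4 thus lacked a promoter peak where a gene of like name had one. The peak at Nrg2 is among those under 5 and is lost with p of at most 1e-05. None of the resistin-like and C1q/TNF-related genes of the list had a promoter peak. The shares in their CpG groups ran from 3.01% (Retnla and Retnlg) to 28.0% (C1qtnf2), so this absence is no result about these families.

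Among the receptors 3 (21.4%, 4.66% to 50.8%) had a promoter peak. Lepr, the leptin receptor, had one of −log10 p 7.92 with its midpoint 104 bp downstream of a TSS, Cdh13 (T-cadherin, which binds adiponectin) one of 8.10 and Erbb3 one of 6.36. The mean share of genes with like promoter CpG ratio was 20.9%, and 24.6% of all protein-coding genes had a promoter peak. The receptor count lay near these shares. Lep and Lepr both had a promoter peak and the adiponectin receptors Adipor1 and Adipor2 had none, which is no result about ligands and their receptors. No gene of the 3 other lists had a promoter peak with a −log10 p above that at Lep, and of all 5391 genes with a promoter peak 285 (5.29%) had.

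**Figure D5:**
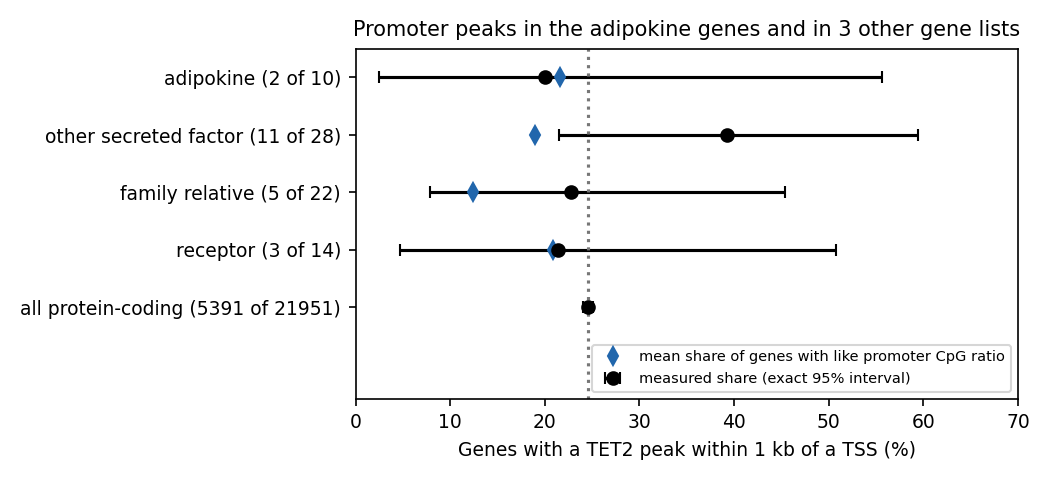
Share of genes with a TET2 peak within 1 kb of a TSS in the adipokine genes and 3 other lists (black points, exact 95% intervals) and the mean share of genes with like promoter CpG ratio (blue diamonds). The dotted line is the 24.6% of all protein-coding genes, which lies inside the interval of every list; the adipokine genes stand at 20%.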

How the data were processed

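TET2 ChIP-seq peaks of adipocytes differentiated from inguinal ASCs were analysed (1 TET2 library, 1 input). Reads were trimmed with NGS QC Toolkit, aligned with bowtie1 and used for peak calling with MACS2 2.1.0 (submitters' processing notes), and the peaks were annotated with ChIPseeker. The deposited list gives each peak's interval and the authors' −log10 p, not corrected for multiple tests; 15.5% of the values are under 5, beyond the stated p setting of 1e-05. The labels name mm10 (GRCm38) and the methods GRCm39. On GRCm38 no peak ran past a chromosome end and 5824 midpoints fell within 1 kb of a TSS, so GRCm38 was used, with starts read as 1-based. The input was not analysed by itself.

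Each peak was placed by its midpoint against all GENCODE M21 transcripts. CpG ratios used 1 representative transcript per gene (coding, principal isoform, best supported), and genes were sorted into 20 equal groups by this ratio and 10 by length. Sequences and annotated sites are from RefSeq (GRCm38.p6), whose promoter table held 8 of the 10 genes. Placement was tested on simulated data. Intervals are exact (Clopper-Pearson, 95%). No test was run, since there is 1 library. Named genes are the 10 members, the gene with the TSS closest to each nearest peak, and up to 6 genes with the largest promoter −log10 p per comparison list. Trappc5, Tmem266, Bcorl1, the neighbours of Cfd and Rarres2, Gdap10 and the adiponectin receptors were named after their values were seen. The members and lists were chosen with earlier results of these data known. The software was matplotlib 3.10.9, pysam 0.24.0, pandas 2.3.3 and scipy 1.17.1 under Python 3.11.15, with numpy 2.4.6.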

Additional observations from a re-analysis of the deposited data

How the results depend on the processing

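No paired analysis was possible because the series has a single TET2 library, a single input and no second group to test against. Alternatives gave 79 values, of which 67 were the same, 12 moved (9 of them for single genes) and 0 reversed. Counts, distances and CpG ratios count as the same within 1.5 times, and the share of larger peaks than that at Lep within its 95% interval. The number of adipokine genes with a promoter peak was 1 with p of at most 1e-08 (Lep kept, Nampt lost, against 7.61% of all protein-coding genes), and stayed at 2, the same genes, with a 3 kb window, p of at most 1e-05, any base of the peak, coding transcripts only, or RefSeq TSSs. With any base of the peak or 5 kb added at each end, Lep joined Nampt and Rbp4 as a gene with a peak in the body. The share of peaks larger than the Lep peak was 5.55% when only promoter peaks were counted and 5.21% with p of at most 1e-05, where fewer peaks are counted by construction. The CpG ratio from 250 bp before to 50 bp after the TSS was 0.585 at Lep, 0 at Adipoq, 0.092 at Retn, 0.080 at Cfd and 0.215 at Rarres2, so the order of the CpG-poor promoters depends on the window. Unknown read depth behind single peaks and the absence of a replicate limit every statement on a single peak. A gene without a listed peak is not shown to lack TET2.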
